A study of Mus musculus with 12 samples.

Results

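The Malat1-poor macrophage droplets were droplets of CD11c-selected tumor cells that held transcripts of macrophages and almost no *Malat1*. A droplet was a member when it had at least 200 detected genes, 800 to 3000 unique molecular identifiers (UMIs, each counting 1 captured transcript), at least 3 UMIs of *C1qa*, *C1qb*, and *Apoe* together, and at most 1 UMI of *Malat1*. Of 11639 CD11c-selected cells with at least 200 genes, 810 were members, out of 34445 such cells in the series. Members were thus chosen by their measured *Malat1*, *C1qa*, *C1qb*, and *Apoe* UMIs, so the values of these genes are given only to describe the members. The comparison cells, called Malat1-rich, had at least 10 *Malat1* UMIs, at least 3 UMIs of the same 3 genes and at least 800 UMIs, and there were 7604 of them.

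*Malat1* is a long noncoding RNA that stays in the nucleus, in the speckles where splicing factors gather, and is among the most abundant transcripts of most mouse cells. *Neat1*, *Xist*, and *Kcnq1ot1* are other noncoding RNAs held in the nucleus or on chromatin, whereas mRNAs of ribosomal, metabolic, and cytoskeletal proteins are translated in the cytosol and those of secreted and membrane proteins on the endoplasmic reticulum. Transcripts of the mitochondrial genome lie within mitochondria, and immediate early transcripts are made quickly after a stimulus and decay quickly.

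The cells came from late-stage tumors of PyMT mice, which carry the polyoma middle T oncogene under the mammary tumor virus promoter, on a B6(Cg) background, and develop breast tumors spontaneously. Female mice with wild-type PAR2 (PyMT-PAR2 WT, 3 samples) and with PAR2 G37I, a protease-activated receptor resistant to cleavage by coagulation factor Xa (PyMT-PAR2 G37I, 3 samples), gave CD11c-selected cells, and neither group had further treatment. The cells were bead-selected for CD11c, an integrin of macrophages and dendritic cells (DCs), then frozen in serum with dimethyl sulfoxide and, once thawed, loaded for droplet sequencing (10x Genomics). The 6 samples share 1 matrix, and no barcode in it can be traced to a sample, so it was treated as 1 sample, the genotypes were not compared, and no p-values are given.

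Barcodes ran through the alphabet 6 times, and these 6 stretches, called barcode runs, were linked to no sample. They held 360 to 2784 cells and 13314063 to 24231244 UMIs. Run 4 stood apart, since its shallowest cell had 21238 UMIs and it could hold no member. Members numbered 22, 178, 61, 336, and 213 in runs 1, 2, 3, 5, and 6. In all, 76 barcodes occurred more than once in the matrix, 3 members carried such a barcode, and 1 pair of members shared one.

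Droplets at this depth ranged from no *Malat1* UMI to 80 or more. Among 1842 droplets of 800 to 3000 UMIs with at least 3 UMIs of *C1qa*, *C1qb*, and *Apoe*, 548 had no *Malat1* UMI and 262 had 1, which made the share of members 44.0% (exact Clopper-Pearson 95% interval 41.7 to 46.3, counting error only). Just outside the threshold, 100 droplets had 2 *Malat1* UMIs and 52 had 3. Each count from 4 to 9 held 20 to 31 droplets. The wider bins above held 146 droplets at 10 to 19 UMIs, 146 at 20 to 39, 158 at 40 to 79, and 274 at 80 or more. These counts do not show 2 separate groups. The 308 droplets with 2 to 9 UMIs are called intermediate.

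**Figure D1:**
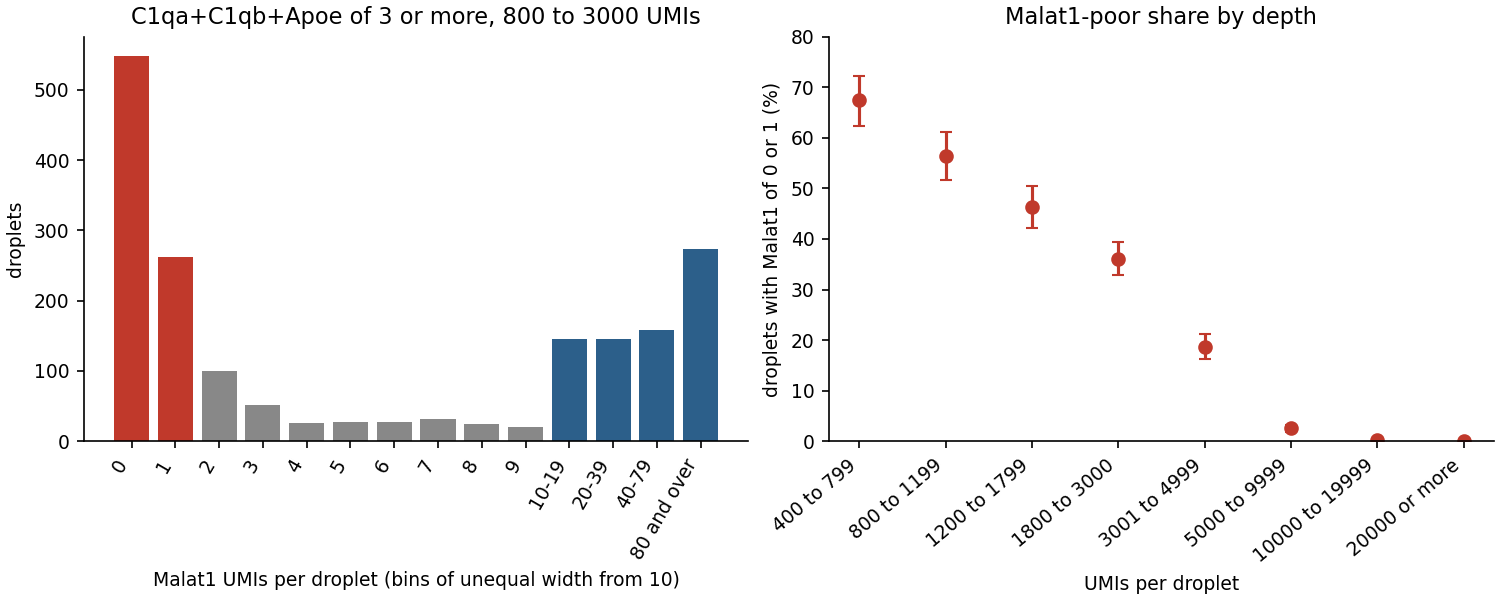
Left, number of droplets (y axis) by Malat1 UMIs (x axis) among droplets of 800 to 3000 UMIs with C1qa+C1qb+Apoe of at least 3, with members in red, intermediate droplets in gray and Malat1-rich in blue. Right, percent of droplets with C1qa+C1qb+Apoe of at least 3 that had Malat1 of 0 or 1 by UMIs per droplet, with exact 95% intervals. The highest bar is the members' 548 droplets with 0 Malat1 UMIs, followed by 274 with 80 or more and the members' 262 with 1. The share falls from 67.5% at 400 to 799 UMIs to 0 at 20000 or more.

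The share depended on depth. It was 56.5% at 800 to 1199 UMIs, 46.3% at 1200 to 1799, and 36.0% at 1800 to 3000. Outside the window it was 67.5% of 369 droplets at 400 to 799 UMIs, 18.6% of 984 above the window and up to 4999, and 2.51% of 2229 at 5000 to 9999. At 20000 UMIs or more 0 of 1435 cells had so little *Malat1*, which allows a share of up to 0.257%. Across the 5 runs with droplets in the window, the share was 13.3% of 166 in run 1, 45.8% of 389 in run 2, 28.0% of 218 in run 3, 52.3% of 642 in run 5, and 49.9% of 427 in run 6.

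*Malat1*, on chromosome 19 at chr19:5795690-5802672 of GRCm38, held a median of 12 UMIs in Malat1-rich cells after each was thinned at random to 800 UMIs. Of these thinned cells, 145 of 7604, or 1.91% (1.61 to 2.24), had *Malat1* of 0 or 1. When they were thinned to depths drawn from the members instead, 0.517% (0.366 to 0.709) did. Because these cells were chosen for at least 10 *Malat1* UMIs, both shares only describe what thinning leaves of them, and nothing is read from them about how the members arose.

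The label was checked with macrophage markers. Of 12 macrophage markers that the rule did not use, a member held a median of 5 at 800 UMIs, and 91.1% (88.9 to 92.98) of members held at least 3, against 76.1% (75.1 to 77.0) of Malat1-rich cells. *C1qc*, the partner chain of the chosen complement genes, had a UMI in 86.7% of members and in 60.8% of Malat1-rich cells, and *Ctss*, a lysosomal protease, in 88.5% and 80.1%. *Csf1r*, the receptor for macrophage colony stimulating factor, was found in 34.2% and 33.2%, and *Ms4a7*, a membrane protein of macrophages, in 50.2% and 32.3%. Of the 12 markers, 11 reached the level at which ratios were taken (at least 50 CPM in either group, as described with the ratios). Of these, 0 were at least 2-fold higher and 1 at least 2-fold lower in members, beside 11.4% and 25.2% of all genes. Members passed the threshold on the chosen genes at a lower depth than Malat1-rich cells, so these shares are not independent of the rule. The summed level of the 12 markers had a ratio of 1.09, and of 0.943 in droplets matched on the chosen genes, as described with the ratios.

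The same genes were counted in droplets of other cell types in the window, as a description of their background. With at least 3 UMIs of T cell receptor genes, 2 of 14 droplets passed the *C1qa*, *C1qb*, and *Apoe* threshold, as did 13 of 67 with at least 3 UMIs of epithelial genes and 13 of 70 with at least 10 UMIs of *S100a8* and *S100a9*, calcium-binding proteins of neutrophils. Their median was 1 UMI of the 3 genes in each type, at a median depth of 2545, 1889, and 2291 UMIs, while members, chosen on these genes, had 31 at 1550 UMIs. *Malat1* of 0 or 1 was found in 25 of the 67 epithelial droplets (37.3%; 25.8 to 49.99), 1 of 70 neutrophil droplets and 0 of 14 T cell droplets, the last of which allows up to 23.2%. Among droplets with fewer than 3 UMIs of the chosen genes, 17.8% (14.4 to 21.8) of 437 were Malat1-poor. Members that were also epithelial by this count numbered 3.

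To compare levels, every member and every Malat1-rich cell was thinned to 800 UMIs, and UMIs were summed over droplets and scaled to a total of 1000000 (CPM). A ratio is the level in members over that in Malat1-rich cells, and its 95% interval covers counting error only. Levels are shares of a fixed total, so a class that takes more of it leaves less for the others, and fewer transcripts of one class in a droplet and more of another cannot be told apart. Of 3450 genes with at least 50 CPM in either group, 394 (11.4%) were at least 2-fold higher in members and 868 (25.2%) at least 2-fold lower, with a median ratio of 1.01. Malat1-rich cells were deeper, with a median of 10502 UMIs, so the threshold of 3 UMIs was easier to pass there. Values are therefore also given for droplets with at least 8 UMIs of the chosen genes after thinning, 674 members and 4779 Malat1-rich cells, and are called matched.

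Noncoding RNAs of the nucleus were nearly absent along with *Malat1*. The 11 detected genes of that list summed to 69.4 CPM in members and 3512 CPM in Malat1-rich cells, a ratio of 0.0198 (0.0144 to 0.0265), and the matched ratio was 0.0189. Against Malat1-rich cells of 800 to 3000 UMIs alone it was 0.0107. At 800 UMIs 94.7% of members and 14.9% of Malat1-rich cells held none of these UMIs, and intermediate droplets lay between, with 66.2% at none and 885 CPM. By barcode run the members' level was 35.1 CPM in run 2, 102 in run 3, 63.2 in run 5, and 64.6 in run 6, with Malat1-rich levels of 3040, 4001, 3679, and 3956 CPM. The 22 members of run 1 stood higher than those of other runs, at 398 against 3174 CPM.

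All 4 genes of this list that reached 50 CPM were past 2-fold lower, beside 25.2% of all genes. *Neat1*, the RNA that builds paraspeckles (chr19:5824708-5845478), had 13.9 CPM in members and 1764 CPM in Malat1-rich cells, 127-fold lower (66.9 to 278). *Xist*, which coats the inactive X chromosome (chrX:103460366-103483254), had 21.6 and 1413 CPM, 65.4-fold lower (38.9 to 120). *Kcnq1ot1*, the antisense RNA of an imprinted locus, had no UMI in members and 114 CPM in Malat1-rich cells, which is at least 24.6-fold lower against a floor of 3 counts over all members. *Gm26917*, an annotated lincRNA, had 1 UMI in members and 148 CPM in Malat1-rich cells, a ratio of 0.0104 (0.000264 to 0.0582). *Tug1*, another listed lincRNA of lower level, had 23.1 and 43.2 CPM, a ratio of 0.535 (0.295 to 0.899). The noncoding hosts of small nucleolar RNAs on the cytoplasmic list, 3 of which were detected, summed to 105 and 98.0 CPM, a ratio of 1.07 (0.821 to 1.38).

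**Figure D2:**
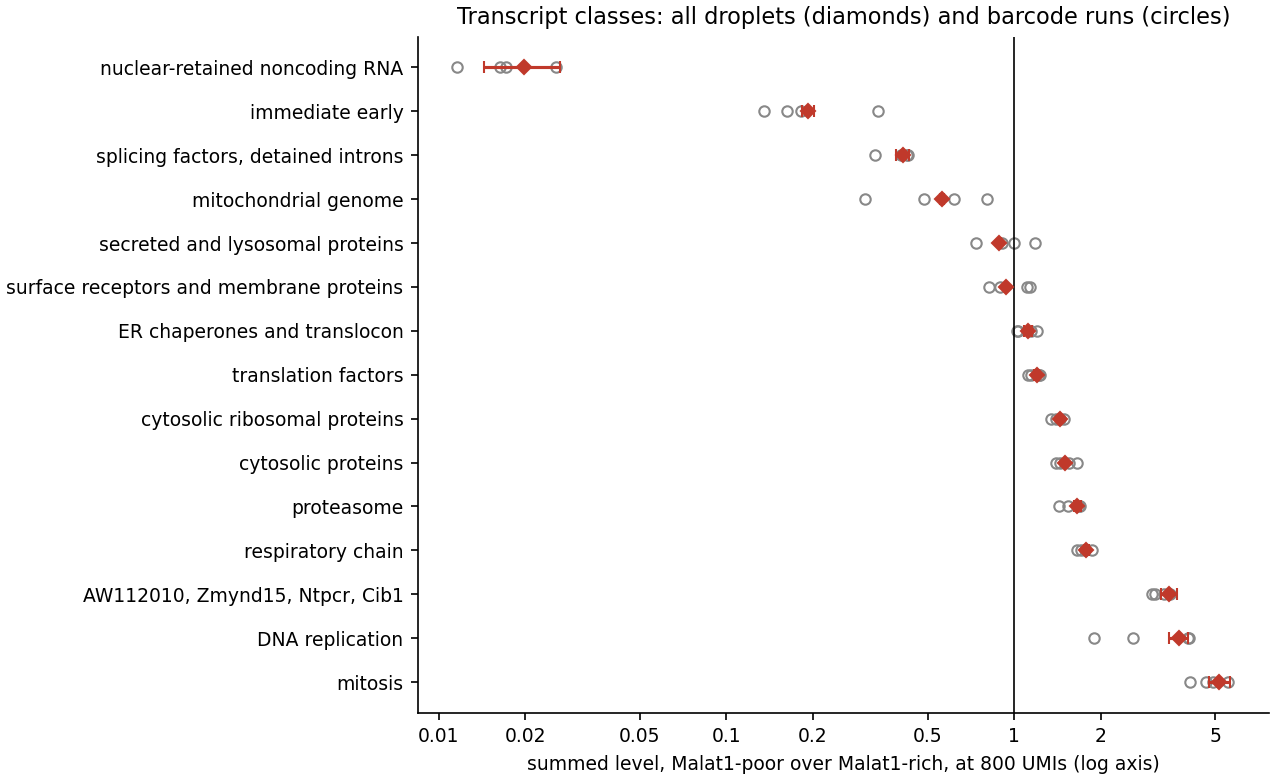
Ratio of the summed level in Malat1-poor members over Malat1-rich cells at 800 UMIs (x axis, log scale) for lists of transcripts (y axis), with diamonds for all droplets, bars for 95% counting intervals and circles for the 4 barcode runs with at least 50 members. Nuclear noncoding RNA lies at 0.0198, immediate early transcripts at 0.192, and the cell cycle lists at 3.73 and 5.17.

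Immediate early transcripts were the next lowest class. All 18 listed genes were past 2-fold lower, against 25.2% of all genes, with a median ratio of 0.178. Their sum was 0.248% of UMIs in members and 1.29% in Malat1-rich cells, a ratio of 0.192 (0.182 to 0.202; matched 0.178), and 47.4% of members held no such UMI, against 0.881% of Malat1-rich cells. *Fos* and *Fosb*, which encode subunits of the transcription factor AP-1, had 111 and 198 CPM in members against 996 and 1066 CPM. *Junb*, their dimerization partner and the highest of the list, had 486 against 2028 CPM, 4.17-fold lower (3.73 to 4.68). *Zfp36*, whose protein binds AU-rich elements and shortens the life of inflammatory mRNAs, had 196 against 1174 CPM, 5.99-fold lower (5.03 to 7.20). *Dusp1*, a phosphatase of MAP kinases, was 6.46-fold lower (5.29 to 7.98), *Nfkbia*, the inhibitor of NF-κB, 4.68-fold lower (3.94 to 5.59), and *Atf3*, a stress-induced factor and the least different, 2.66-fold lower (2.15 to 3.34).

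The immediate early level also differed between barcode runs. It was 1980 CPM in run 2, 4201 in run 3, 1544 in run 5, and 2254 in run 6 in members, against 11445 to 12454 CPM in Malat1-rich cells of these runs. In run 1 the 22 members had 18125 CPM and Malat1-rich cells 17270 CPM, a ratio of 1.05, so that run did not share the difference. Without run 1 the ratio over all droplets was 0.168, and without run 5 it was 0.236. Among members, the level was 4339 CPM at 800 to 1199 UMIs, 2043 at 1200 to 1799, and 1383 at 1800 to 3000.

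Many of these genes carry an AU-rich letter run in the 3′ UTR, and the first such site of the 4 listed genes with the highest Malat1-rich levels among those that held one is shown, read 5′ to 3′ from the principal GENCODE M21 transcript with 10 bases on each side and the searched letters TATTTAT in capitals.
Zfp36: gtgggcccttTATTTATgacgacttta
Fosb: cacccccagcTATTTATccctttcctg
Fos: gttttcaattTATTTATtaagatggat
Nfkbia: gaccacgtttTATTTATtgtgcttttg
The sites lie in 3′ UTR exons of GRCm38 at chr7:28376967-28376993, minus strand, for *Zfp36*, chr7:19303327-19303353, minus strand, for *Fosb*, chr12:85477104-85477130, plus strand, for *Fos*, and chr12:55489609-55489635, minus strand, for *Nfkbia*. These letters, searched on the transcribed strand only, are the core that *Zfp36* protein is known to bind, and a match is a description and not a site of binding. They were found in the 3′ UTR of 13 of the 18 immediate early genes, against 27.4% of 3409 genes, and not in *Junb*, *Egr1*, *Ier2*, *Klf4*, and *Nr4a1*.

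Genes that hold these letters were more often past 2-fold lower in members in each of 5 groups by 3′ UTR length. Of genes past 2-fold lower, 44.7% held them, against 22.0% of genes between and 19.8% of genes past 2-fold higher, but lower genes also had longer 3′ UTRs, with a median of 1519 bases against 882 and 468. Within 5 equal groups by 3′ UTR length, the share of genes past 2-fold lower was 29.6% with the letters and 9.77% without in the shortest group, 35.2% and 14.5% in the next, 45.8% and 23.4% in the middle, 34.4% and 25.4% in the fourth, and 44.7% and 32.4% in the longest. Only 27 genes of the shortest group held the letters. In 5 groups by length of the whole transcript, these shares ran from 20.4% and 5.69% in the shortest to 56.5% and 45.2% in the longest. The median ratio was 1.59 with and 1.58 without the letters in the shortest of these groups, and 1.33 and 1.25 in the next. In the longer groups it was lower with the letters. Whether the letters matter apart from length was not tested.

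Transcripts known to keep introns in the nucleus, most of them of splicing factors, were also lower, though less so. The list also holds *Ogt* and *Mat2a*, which encode metabolic enzymes, with ratios of 0.208 and 0.232. Of 20 listed genes, 15 were past 2-fold lower and 0 higher, beside 25.2% and 11.4% of all genes, with a median ratio of 0.314, and the sum was 2483 CPM in members against 6055 CPM (ratio 0.410, 0.390 to 0.431; matched 0.404). *Nktr*, a cyclophilin of splicing speckles, was 11.1-fold lower (6.58 to 20.3), and *Clk1*, a kinase of SR proteins whose transcript is a standard example of intron detention, 5.40-fold lower (3.55 to 8.66). *Rbm25*, *Rbm39*, and *Son*, proteins of the speckle and spliceosome, had 58.6, 159, and 133 CPM against 286, 533, and 401 CPM. *Hnrnpu*, which binds nuclear RNA, did not follow, with 346 CPM against 303 CPM (ratio 1.14, 0.990 to 1.31).

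**Figure D3:**
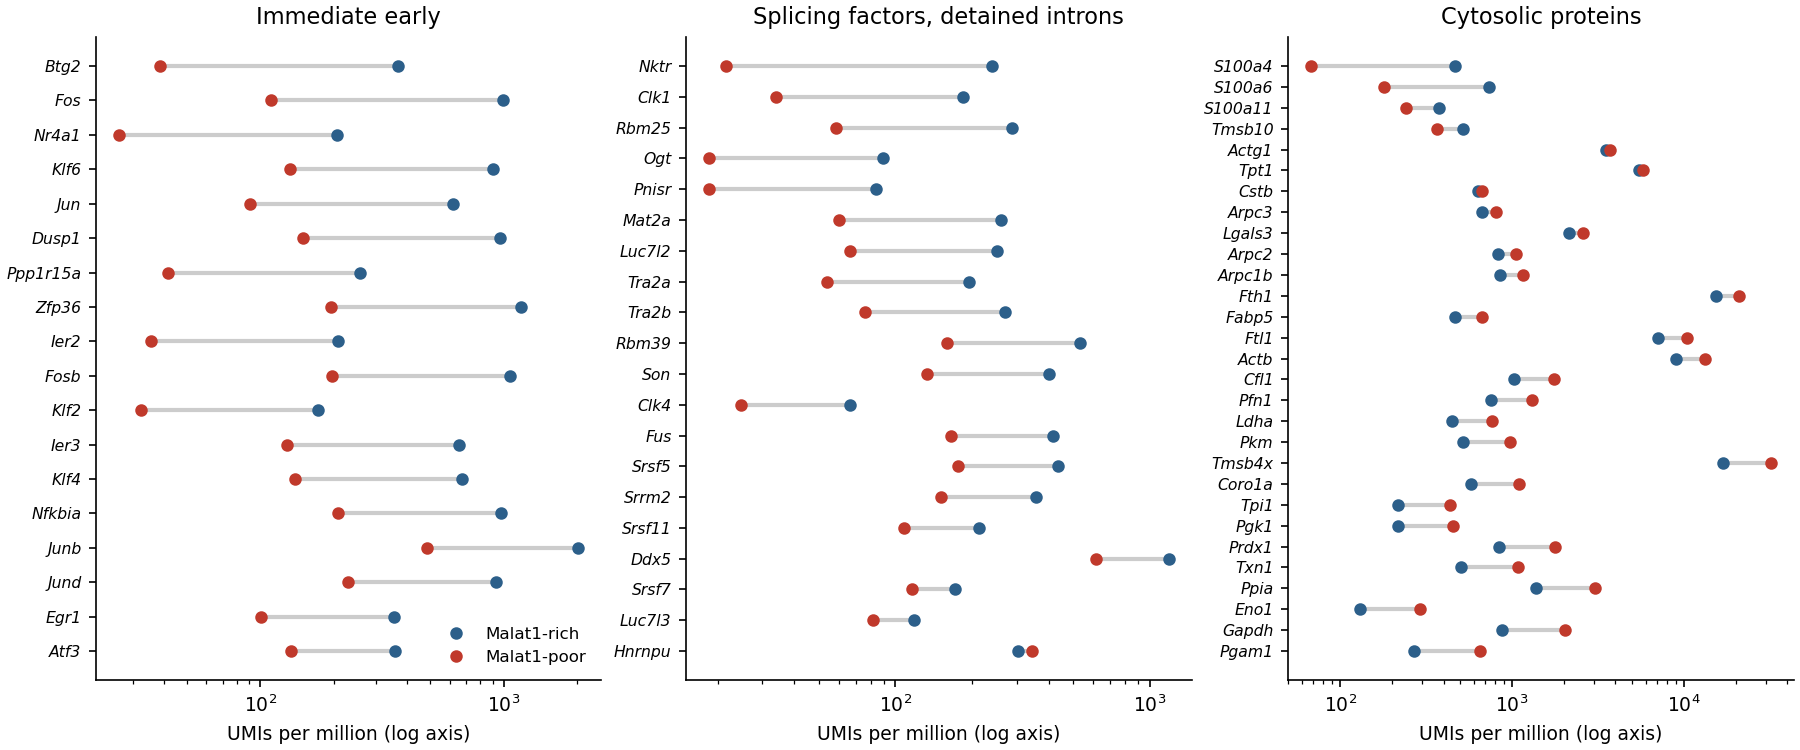
Level of each tested gene of 3 lists (y axis) in Malat1-poor members (red) and Malat1-rich cells (blue) at 800 UMIs, in CPM on a log x axis. All 18 immediate early genes lie to the left in members, as do 19 of 20 transcripts known to keep introns in the nucleus, most of them of splicing factors. Most cytosolic genes lie to the right.

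Transcripts of the mitochondrial genome took a smaller share of the members. They were a median of 2.38% of UMIs per member (quartiles 1.03 and 4.75), 4.88% in Malat1-rich cells, and 5.13% in intermediate droplets. Malat1-rich cells of the same depth window, 724 in all, had 8.0%. The summed ratio was 0.562 (0.554 to 0.569; matched 0.590), and all 12 tested genes were lower. Of these, 4 were past 2-fold lower, beside 25.2% of all genes. *mt-Co1*, a subunit of cytochrome oxidase, had 6219 CPM against 11818 CPM, and *mt-Nd4*, of complex I, had 1441 against 3171 CPM. The ratio ranged from 0.304 in run 3 to 0.804 in run 2, where members had 24303 and 36812 CPM. Only 3.33% (2.21 to 4.81) of members were over 10% mitochondrial, against 12.6% (11.8 to 13.4) of Malat1-rich cells and 35.2% (31.7 to 38.8) of those in the window.

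Ribosomal protein transcripts were higher in members. Their share was a median of 17.6% of UMIs per member (quartiles 14.5 and 20.9), 12% in Malat1-rich cells, 13.1% in intermediate droplets, and 5.44% in Malat1-rich cells of the same window. All 83 tested genes were higher, with the smallest ratio, 1.10, for *Rps27* of the small subunit. Only 1 gene was past 2-fold higher, beside 11.4% of all genes. The ratio of the sum was 1.45 (1.44 to 1.46; matched 1.54) and lay between 1.34 and 1.49 in the 4 larger runs, but at 1.01 in the 22 members of run 1. Against Malat1-rich cells of 800 to 3000 UMIs alone it was 2.53. Translation factors summed to a ratio of 1.20 (1.17 to 1.23), with *Eif5a* at 1.70 and *Eif4a2*, a helicase of initiation, at 0.420.

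The nuclear-encoded subunits of the respiratory chain were higher, opposite to the mitochondrial-encoded ones. Of 75 tested genes 20 were past 2-fold higher and 0 lower, against 11.4% higher over all genes, and all 75 had a ratio over 1. The sum was 2.51% of UMIs in members against 1.41% (ratio 1.78, 1.75 to 1.81; matched 1.87), with 1.66 to 1.86 over the 4 larger runs and 3.19 against Malat1-rich cells of 800 to 3000 UMIs. *Cox7b*, of cytochrome oxidase, had 523 against 221 CPM, 2.36-fold higher (2.09 to 2.67), and *Ndufa12*, of complex I, 236 against 90.1 CPM, 2.62-fold higher (2.18 to 3.14). Of 34 tested proteasome genes, 8 were past 2-fold higher and 0 lower, and the sum had a ratio of 1.66 (1.61 to 1.71). *Psmb8* and *Psmb9*, interferon-induced subunits of the immunoproteasome, were at 597 and 312 CPM against 293 and 122 CPM.

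**Figure D4:**
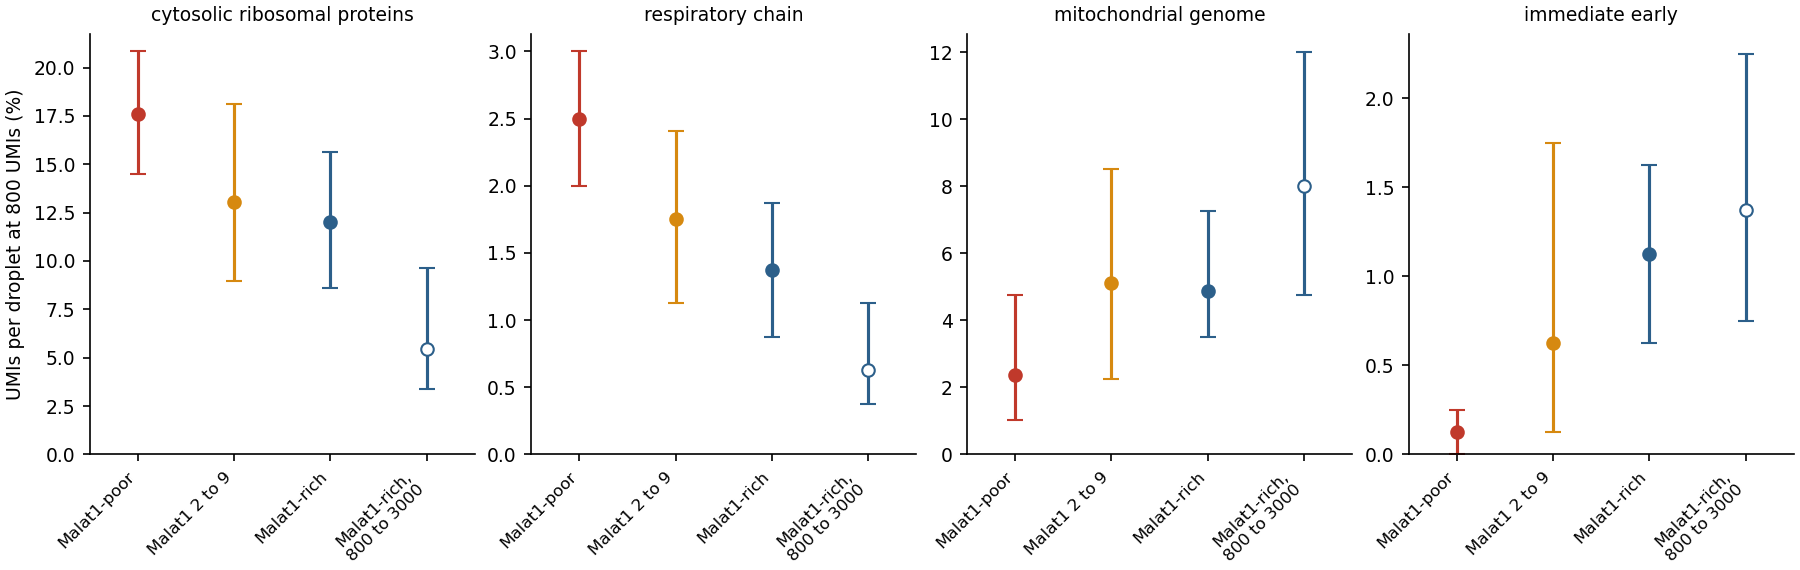
Median percent of UMIs per droplet at 800 UMIs (y axis), with quartile bars, for 4 transcript classes in 810 Malat1-poor members, 308 intermediate droplets, 7604 Malat1-rich cells and the 724 Malat1-rich cells of 800 to 3000 UMIs (open circles). Ribosomal and respiratory chain shares are highest and mitochondrial and immediate early shares lowest in members.

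Transcripts of abundant cytosolic proteins were mostly higher as well. The list took 10.99% of UMIs in members and 7.30% in Malat1-rich cells (ratio 1.51, 1.49 to 1.52; 2.50 against Malat1-rich cells of 800 to 3000 UMIs), with 8 of 29 genes past 2-fold higher and 2 lower, beside 11.4% and 25.2% of all genes. The glycolytic genes *Gapdh* (2043 against 873 CPM), *Pgam1* (650 against 270 CPM), and *Eno1* (293 against 130 CPM) were past 2-fold higher, as was *Ppia*, a cyclophilin (3026 against 1372 CPM). *Tmsb4x*, which binds actin monomers and was the highest of the list, was 1.89-fold higher (1.86 to 1.92). Of the 29 genes 4 had a ratio under 1, namely *Tmsb10*, another actin-binding thymosin, at 0.701, *S100a11* at 0.639, and *S100a4* and *S100a6*, small calcium-binding proteins past 2-fold lower at 67.9 and 181 CPM against 467 and 736 CPM.

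Transcripts read on the endoplasmic reticulum did not move as 1 group. Those of secreted and lysosomal proteins had a ratio of 0.887 (0.877 to 0.898; matched 0.809), with 13 of 40 genes past 2-fold lower and 1 higher (25.2% and 11.4% of all genes), and surface receptors and membrane proteins a ratio of 0.937 (0.927 to 0.948), with 5 of 31 lower and 1 higher. Both ratios lay on either side of 1 over the 4 larger runs, from 0.738 to 1.18 and from 0.819 to 1.14. Chaperones and translocon subunits of the endoplasmic reticulum had a ratio of 1.12 (1.08 to 1.15), with 1 gene past 2-fold in each direction.

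Within the secreted and lysosomal list, single genes lay on both sides, and those described here were chosen after their values were seen. *Cxcl2*, a chemokine for neutrophils, had 364 CPM in members against 2864 CPM, 7.87-fold lower (6.92 to 8.98), *Tnf* 57.1 against 245 CPM, and *Il1b* 605 against 1855 CPM, 3.07-fold lower (2.77 to 3.40). *Ccl2*, *Ccl3*, *Ccl4*, *Ccl6*, *Ccl7*, and *Ccl9*, chemokines of macrophages, were all past 2-fold lower, whereas *Ccl12* was 2.60-fold higher (2.30 to 2.94; matched 1.88) and *Cxcl16* had a ratio of 1.16. The protease transcripts *Ctsb* (2940 against 3077 CPM), *Ctsd* (1952 against 1907 CPM), and *Ctss* (4520 against 3289 CPM) had ratios of 0.955, 1.02, and 1.37, and *Ctsl*, another cathepsin, and *Lyz2*, lysozyme, of 0.600 and 0.765. Among surface genes, *Cd14*, the coreceptor for lipopolysaccharide, was 4.88-fold lower (4.30 to 5.55), *Mrc1*, the mannose receptor, at 133 against 551 CPM, and *Tmem119* 2.48-fold higher (1.94 to 3.15). The class II genes *H2-Aa*, *H2-Ab1*, and *Cd74*, which present antigen, had 6414, 7014, and 11832 CPM against 7471, 7938, and 13243 CPM.

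*AW112010*, *Zmynd15*, *Ntpcr*, and *Cib1*, the markers given with the rule after earlier results of these data, were each past 2-fold higher and are no independent support. *AW112010*, an inducible immune transcript annotated as a lincRNA (chr19:11047612-11055808), had a UMI in 44.4% of members and 14.8% of Malat1-rich cells, with 1028 and 251 CPM, 4.10-fold higher (3.74 to 4.49; matched 3.59). *Zmynd15*, a zinc finger protein, was 2.88-fold higher (2.49 to 3.33), *Ntpcr*, a nucleoside triphosphatase, 2.82-fold (2.36 to 3.34), and *Cib1*, which binds calcium and integrins, 3.11-fold (2.56 to 3.77). Their sum in members was 2444, 1516, 1838, and 1766 CPM in runs 2, 3, 5, and 6, against 457 to 705 CPM, and 625 against 356 CPM in run 1. Intermediate droplets had 1283 CPM, between both groups.

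The 15 genes with the highest ratios, among those on 1 side of 1 in all 4 larger runs, were *Ccna2*, *Cdca3*, *Rrm2*, *Dut*, *Tk1*, *Birc5*, *Cdca8*, *Racgap1*, *Nusap1*, *Pclaf*, *Ube2c*, *Cdk1*, *Stmn1*, *Mcm2*, and *Spc24*. All of them except *Stmn1*, which encodes a regulator of microtubules, act in DNA replication or mitosis. *Ccna2*, the cyclin of S phase and mitotic entry, had 61.7 against 6.58 CPM, 9.39-fold higher (5.90 to 14.9), *Rrm2*, a subunit of ribonucleotide reductase, was 7.54-fold higher (5.07 to 11.2), *Birc5*, a subunit of the chromosomal passenger complex, 6.61-fold (5.07 to 8.60), and *Stmn1* had 503 against 83.8 CPM, with a UMI in 26.2% of members and 5.27% of Malat1-rich cells.

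Lists of cell cycle genes, drawn up after these genes had been seen, showed the same and support nothing further. Of 17 tested DNA replication genes 16 were past 2-fold higher, and of 11 tested mitosis genes 10, beside 11.4% of all genes. Ratios of the sums were 3.73 (3.46 to 4.01; matched 4.05) and 5.17 (4.74 to 5.63; matched 6.58). The mitosis ratio was 10.3 against Malat1-rich cells of 800 to 3000 UMIs and 3.39 without thinning. Members with at least 1 UMI of these 35 genes at 800 UMIs made up 64.1% (60.7 to 67.4), against 28.5% (27.5 to 29.6) of Malat1-rich cells, and those with at least 3 made up 38.8% (35.4 to 42.2) against 5.64% (5.13 to 6.18). By run, mitosis genes had 822, 1271, 1548, and 1338 CPM in members of runs 2, 3, 5, and 6, against 201 to 280 CPM in Malat1-rich cells, and 284 against 173 CPM in run 1.

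The differences in nuclear noncoding, immediate early, mitochondrial, ribosomal, and respiratory chain transcripts were present in droplets with and without cell cycle transcripts. Among 291 members and 5435 Malat1-rich cells that held no UMI of the 35 genes, the ratio was 0.0220 for nuclear noncoding RNA, 0.236 for immediate early, 0.562 for mitochondrial, 1.40 for ribosomal, and 1.76 for respiratory chain transcripts. Among 314 members and 429 Malat1-rich cells with at least 3 such UMIs, the ratios were 0.0170, 0.143, 0.576, 1.38, and 1.42. Secreted and lysosomal transcripts had 53226 CPM in members with no such UMI and 37174 CPM in those with at least 3. Malat1-rich cells had 52312 and 40874 CPM, for ratios of 1.02 (0.999 to 1.04) and 0.909 (0.886 to 0.934). The lower level of this class was thus not seen without cell cycle UMIs. Surface receptors and membrane proteins had ratios of 0.993 and 1.08.

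With the genes of the rule left out, the 15 genes with the lowest ratios held the 4 nuclear RNAs above, *Lncpint*, another lincRNA, and 10 coding genes. *Lncpint*, *Mid1*, a ubiquitin ligase of microtubules, *Cd209a*, a lectin of immature DCs, and *Sparc*, a matrix protein of fibroblasts, had 0 UMIs in members and 67.1, 95.2, 54.6, and 78.1 CPM in Malat1-rich cells, at least 14.5-, 20.6-, 11.8-, and 16.9-fold lower against the floor of 3 counts. *Lilrb4a*, an inhibitory receptor of myeloid cells, *Pvr*, a ligand of lymphocyte receptors, and *Ahr*, the aryl hydrocarbon receptor, had 1 UMI each, with ratios of 0.0221 (0.000558 to 0.124), 0.0228 (0.000577 to 0.128), and 0.0235 (0.000593 to 0.132). *Map3k14* and *Camkk2*, kinases of the noncanonical NF-κB and calcium pathways, had 2 UMIs each. *S100a8* and *S100a9*, with 1 and 2 UMIs, are neutrophil genes found in under 1% of Malat1-rich cells, and the matched ratio of *S100a9* was 0.373.

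Markers of other cell types were summed in the same way, and several were lower in members. Neutrophil markers summed to 20.1 CPM in members (3 of 6 at 0) and 225 CPM in Malat1-rich cells, fibroblast markers to 23.1 (1 of 6 at 0) and 332 CPM, migratory DC markers to 30.9 (2 of 6 at 0) and 202 CPM, and cDC2 markers to 64.8 (3 of 8 at 0) and 397 CPM. Matched ratios of these lists were 0.319, 0.668, 0.945, and 0.389. Epithelial markers had a ratio of 0.583 that turned to 2.24 in the matched groups, with *Epcam* and *Krt8* at 40.1 and 63.3 CPM in members. T cell markers had 10.8 against 27.5 CPM with 5 of 8 at 0, monocyte markers 145 against 311 CPM with 4 of 6 at 0, and erythroid or platelet markers were at 0 in members. Endothelial markers had 9.26 against 40.4 CPM with 2 of 6 at 0, cDC1 markers 605 against 472 CPM with 2 of 6 at 0, and B or plasma cell markers, all but 2 of them at 0, 218 against 128 CPM. The part of other cells in the ratios of single genes was not tested beyond the matched values.

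Marker lists of macrophage subsets did not all keep their level. Genes of *Thbs1* and *Vegfa* macrophages summed to 116 against 977 CPM, 8.44-fold lower (6.72 to 10.7; matched 7.29), with *Thbs1*, a matrix protein that activates TGFβ, at 38.6 against 584 CPM and *Vegfa*, the angiogenic factor, at 32.4 against 233 CPM. *Il10*, an anti-inflammatory cytokine, had 29.3 against 188 CPM. Genes of lipid-associated macrophages had a ratio of 0.782 (0.740 to 0.825; matched 0.605), which ranged from 0.439 in run 5 to 1.60 in run 3, and those of *Tmem119* and *Zmynd15* macrophages 2.77 (2.46 to 3.11). The latter list holds *Zmynd15*, a marker given with the rule, which made up 375 of its 569 CPM in members. Its ratio is therefore no independent support. Resident-like markers had 61.7 against 243 CPM, with ratios from 0.0322 in run 2 to 0.802 in run 3, and the *Retnla* and *Ear2* list 531 against 1792 CPM, from 0.0879 in run 5 to 0.676 in run 3. Interferon-induced genes, a list chosen after the data had been seen, had a ratio of 1.21 (1.16 to 1.27), with *Cxcl9*, a chemokine for T cells, 2.50-fold higher at 98.8 against 39.4 CPM and *Cxcl10* at 187 against 220 CPM. Of 24 tested genes that the study's text names, 11 were past 2-fold lower and 3 higher, beside 25.2% and 11.4% of all genes. The share higher was near that background and the share lower was above it, with a median ratio of 0.636.

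Transcripts lower in members were longer. The principal transcript of a gene had a median of 4081 bases among 852 genes past 2-fold lower, 2446 among 2168 between, and 1604 among 389 past 2-fold higher, and its coding part 1755, 1002, and 648 bases. Split into 5 equal groups by transcript length, the median ratio went from 1.58 at 204 to 1383 bases through 1.27, 1.01, and 0.761 to 0.482 at 4763 bases or more. In the shortest group 24.2% of genes were past 2-fold higher and 6.74% lower, and in the longest 2.35% and 51.3%. Across 3409 genes, which share the same droplets and are no replicates, Spearman's coefficient of ratio and transcript length was -0.49, and it was -0.49 over the 3028 genes on no transcript class list and -0.51 over 726 genes of at least 200 CPM in Malat1-rich cells.

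The order by length was also found in the other comparisons made. The coefficient was -0.50, -0.44, -0.48, and -0.45 in runs 2, 3, 5, and 6, -0.59 against Malat1-rich cells of 800 to 3000 UMIs, -0.52 in droplets with no cell cycle UMI, and -0.41 for intermediate droplets over Malat1-rich cells. Classes did not all follow length. Immediate early transcripts had a median of 2331 bases, below the median of 2684 over all genes, and the DNA replication and mitosis lists, which were high, 2962 and 2960 bases. Ribosomal and respiratory chain transcripts were short, with medians of 878 and 863 bases.

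**Figure D5:**
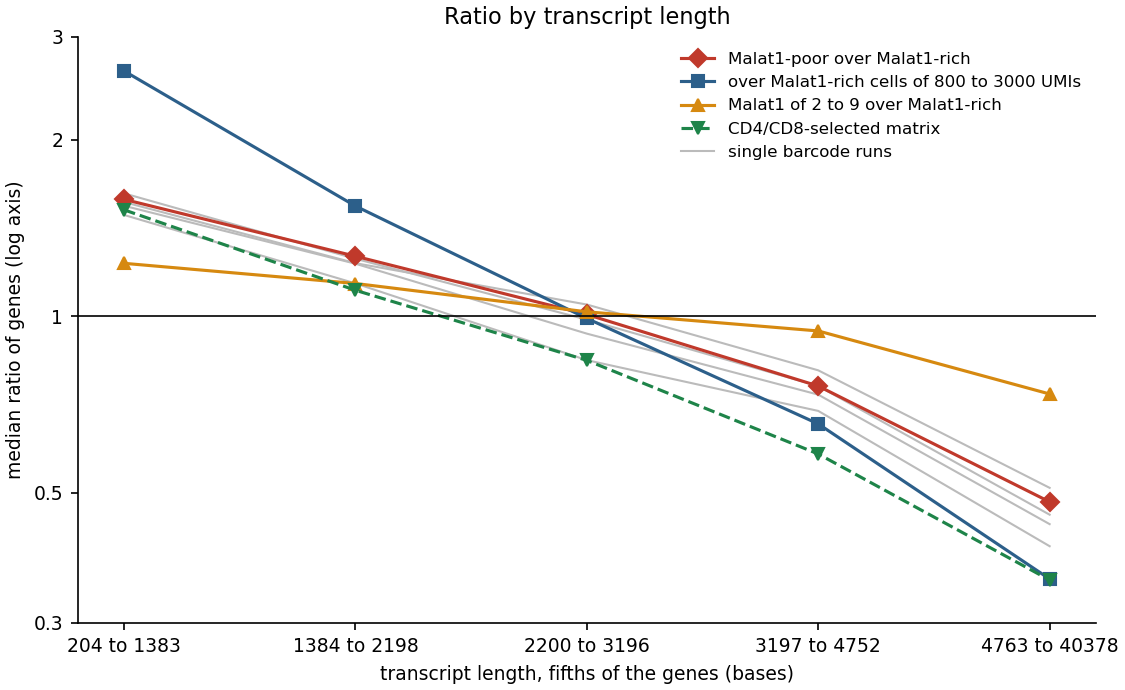
Median ratio of genes (y axis, log scale) in 5 equal groups by transcript length in bases (x axis), for Malat1-poor members over all Malat1-rich cells (red), over those of 800 to 3000 UMIs (blue), for intermediate droplets (orange), in the CD4/CD8-selected matrix (green, dashed) and in 4 single barcode runs (gray). Every line falls with length, in red from 1.58 to 0.482.

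Members also differed among themselves. Those with 1 *Malat1* UMI had 3087 CPM of immediate early transcripts and 35749 CPM of mitochondrial ones, against 2185 and 32475 CPM in those with none, and 170160 against 180400 CPM of ribosomal ones. In intermediate droplets the 3 classes were at 10601, 57342, and 135970 CPM. Across the 810 members at 800 UMIs, the ribosomal share went with a lower share of secreted and lysosomal transcripts (Spearman's coefficient -0.59) and a higher respiratory chain share (0.32), while the mitochondrial share varied less with the ribosomal one (-0.21), all being parts of 1 total.

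Detected genes per droplet differed little at equal depth. Members had a median of 776 genes at a median of 1550 UMIs. Thinned to 800 UMIs they had 479 genes (quartiles 456 and 498), Malat1-rich cells 496 (473 and 518), intermediate droplets 494, and Malat1-rich cells of the same window 488.

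The same rule found a few such droplets among CD4/CD8-selected cells, whose 6 samples, 3 of each genotype and from mid-size tumors, lie in a matrix of their own that the rule did not use. Of 410 droplets of 800 to 3000 UMIs with at least 3 UMIs of the chosen genes there, 49 had *Malat1* of 0 or 1, or 11.95% (8.97 to 15.5). Most of the 2839 Malat1-rich cells there held few of the chosen transcripts, with a median of 2 UMIs at 800. T cell markers summed to 4392 CPM in them and to 102 CPM in the 49 members. Against these Malat1-rich cells the ratio was 0.0314 for nuclear noncoding RNA, 0.412 for immediate early and 0.727 for mitochondrial transcripts. It was 0.868 for ribosomal and 1.85 for secreted and lysosomal ones, both opposite in direction to the CD11c-selected droplets. With at least 8 UMIs of these genes after thinning in both groups, 42 members stood against 954 Malat1-rich cells. Nuclear noncoding RNA had 1 UMI in these members, a ratio of 0.0112 (0.000284 to 0.0625), immediate early transcripts a ratio of 0.341 (0.279 to 0.413), and mitochondrial ones 0.501 (0.471 to 0.533). Ribosomal transcripts were at 1.71 (1.67 to 1.76), those of the respiratory chain at 1.58 (1.47 to 1.70), and secreted and lysosomal ones at 0.782 (0.750 to 0.815).

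The cell cycle lists rested on few UMIs there. DNA replication and mitosis genes had 14 and 4 UMIs in the 42 members, with ratios of 1.19 (0.640 to 2.03) and 0.564 (0.152 to 1.47). *AW112010*, *Zmynd15*, *Ntpcr*, and *Cib1* together had a ratio of 2.43 (1.74 to 3.32), but 0.841 (0.616 to 1.12) against all 2839 Malat1-rich cells. The decline with length was similar, with a coefficient of -0.47 over 2797 genes and a median ratio from 1.52 in the shortest to 0.355 in the longest group. The part of T cells among the Malat1-rich cells in this decline was not tested.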

How the data were processed

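Cells of 6 CD11c-selected and 6 CD4/CD8-selected samples were measured on the 10x Genomics platform. Each selection has 1 matrix of raw, whole-number UMI counts as deposited, with 11980 and 23101 barcodes and 31053 genes. Per the submitters' processing notes Cell Ranger 3.0.2 and the build mm10 were used. No barcode could be traced to a sample, so each matrix was treated as 1 sample and no test per sample was made.

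Droplets were thinned without replacement to 800 UMIs (seed 1) and summed, and ratios have exact conditional binomial 95% intervals. Shares have exact Clopper-Pearson intervals, and 3 counts were the floor for 0. Intervals and floors cover counting error only. Doublets were not removed. Calculations used Python 3.11.15, numpy 2.4.6, scipy 1.17.1, and pandas 2.3.3 and were tested on simulated data. Transcript lengths and 3′ UTRs are of the principal (otherwise the longest) coding transcript of GENCODE M21 on GRCm38, which 98.8% of the 3450 genes had.

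The members, markers and transcript lists were chosen with earlier results of these data known. The genes of the rule were left out of gene counts and rankings. Named genes are those used by the rule, listed markers and class members, and the 15 with the highest and lowest ratios on 1 side of 1 in every barcode run with at least 50 members, at 50 CPM or more; other lists were added later. Alternatives were *Malat1* of 0 only, at least 6 UMIs of the chosen genes, comparison cells of the same window, no thinning, another seed, other totals, droplets over 10% mitochondrial or with repeated barcodes left out, single runs left out, and at least 200 CPM. Thresholds on the chosen genes after thinning (3 or 8 UMIs) and droplets without cell cycle UMIs were added after seeing the data. Some genes of these lists are not reported here.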

Additional observations from a re-analysis of the deposited data

How the results depend on the processing

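No class ratio past 2-fold changed direction under the alternatives run in the CD11c-selected matrix. Among classes nearer to 1, surface receptors and membrane proteins, at 0.937, had a ratio of 1.03 without thinning and 1.02 without run 5. The share of Malat1-poor droplets was 29.8% with *Malat1* of 0 only and 51.8% without droplets over 10% mitochondrial. Against Malat1-rich cells of 800 to 3000 UMIs, 1002 genes were past 2-fold higher and 1370 lower, and the ratio was 0.0107 for nuclear noncoding RNA, 0.148 for immediate early, 2.53 for ribosomal and 0.385 for mitochondrial transcripts. Without thinning 203 genes were higher, and with at least 200 CPM 85 were higher and 210 lower, from fewer genes tested. The immediate early ratio was 0.169 with *Malat1* of 0 only, 0.178 with at least 8 UMIs of *C1qa*, *C1qb*, and *Apoe* after thinning, and 0.236 without droplets that held a cell cycle UMI. The ribosomal ratio was 1.48 and the mitochondrial 0.544 with *Malat1* of 0 only, 1.46 and 0.580 with at least 6 UMIs of the chosen genes, 1.35 and 0.645 without thinning, 1.42 and 0.553 without the rule genes in the total, 1.39 and 0.635 without droplets over 10% mitochondrial, and 1.54 and 0.590 with at least 8 UMIs after thinning. The ribosomal ratio was 1.38 without mitochondrial and rule genes in the total, 1.54 with at least 3 UMIs after thinning, and 1.40 without droplets that held a cell cycle UMI. With each barcode run left out in turn, the share ranged from 39.5% to 47.0%, and the ratios from 1.41 to 1.47 for ribosomal, 0.168 to 0.236 for immediate early, 0.508 to 0.616 for mitochondrial and 0.0169 to 0.0216 for nuclear noncoding transcripts. Genes past 2-fold ranged from 368 to 460 higher and 855 to 898 lower. Causes of these shifts were not tested. No paired analysis was possible because the barcodes carry no sample or replicate number. At 800 UMIs per droplet, 1 UMI over all members was 1.54 CPM, so values of lists with few UMIs, such as T cell and endothelial markers, are imprecise.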
